A study of Mus musculus with 38 samples.

Results

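In thymocytes, 5248 SATB1-bound sites lay outside every base-unpairing region (BUR) of the in vitro reference map and had no counterpart in skin. They were taken from the urea ChIP-seq peaks of thymocyte replicate 2, which number 38765 on chromosomes 1 to 19 and X. A site qualified when it shared no base with a BUR, at least 1 bp with a peak of thymocyte replicate 1, and no base with a peak of either skin list. Of the 38765 peaks, 8675 were free of BURs, 6617 of these were also called in replicate 1, and 5248 of those were in neither skin list, which is 13.5% of all peaks. Of all 38765 peaks, 72.5% were in neither skin list. Dropping the requirement of replicate 1 gave 7252 sites and starting from replicate 1 alone gave 9398. The rule further divided the sites by brain: 3813 were called in both brain lists, 953 in 1 list and 482 in neither, so that 1435 were not in both. The selection used the presence of a peak in these lists, and those presences are given below as descriptions without a test.

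All lists came from wild-type C57BL/6 mice. Thymocytes of postnatal day 13 were used for the urea SATB1 lists with a homemade rabbit antibody, 1583D, at 4 µl in replicate 1 and 2 µl in replicate 2. The same antibody was used for brain (labels of 5 weeks for replicate 1 and 6 weeks for replicate 2, amplified for 10 and 12 PCR cycles) and for skin (label of day 13, sonicated for 55 and 60 s). The protocol text of the labels names day 13 for brain and day 5 for the skin keratinocytes. The study's text names mice of 6 to 10 weeks for brain and newborn mice for skin. The ages of these groups are therefore uncertain. The standard SATB1 lists and the thymocyte and skin CTCF lists carry day 13 as age, but the titles of standard replicate 1 and of the thymocyte CTCF list say 6 weeks. Standard SATB1 ChIP-seq of thymocytes had 2 lists, of which replicate 1 used the Abcam antibody ab109122 and replicate 2 the 1583D antibody. CTCF urea ChIP-seq had 1 list each for thymocytes and skin, and the BUR map was made by binding SATB1 protein to genomic DNA in vitro. The study's text names frontal cortex as the brain tissue and epidermal keratinocytes as the skin cells. Each list pools many cells, so a site bound in few cells and a site bound weakly in many cannot be told apart. Peak lists hold no expression values, so the tissue labels were not checked against marker genes.

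SATB1 is a nuclear protein abundant in thymocytes, where it folds chromatin and guides gene expression during T-cell development. It carries CUT repeats and a homeodomain, a type of domain that often recognises short words around TAAT. BURs are stretches of DNA that come apart easily under superhelical stress because each strand runs on without C or without G. In urea ChIP-seq, crosslinked chromatin is purified through urea so that only proteins fixed directly to DNA remain, whereas standard ChIP-seq starts from whole crosslinked nuclei.

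Sequences of 200 bp centred on the summit are printed for the sites that the results turn on, on the plus strand of NCBIM37. Capitals mark the words ATTAG and TAATA on either strand, the words most concentrated at the summits of these sites. The first sequence is the site of highest fold enrichment, chr10:121200421-121200620, which was intergenic and held neither word. The second, at chr11:118808760-118808959, lay 35.9 kb from a start site of Rbfox3, which codes for the neuronal marker NeuN, and holds several copies of ATTAG close together. The third, at chrX:39375761-39375960, was the strongest site in neither brain list and lay 37.0 kb from a start site of Xiap. The fourth, at chr17:45942722-45942921, was rich in G and C and also lay in both standard SATB1 lists and both CTCF lists.
Strongest site, chromosome 10: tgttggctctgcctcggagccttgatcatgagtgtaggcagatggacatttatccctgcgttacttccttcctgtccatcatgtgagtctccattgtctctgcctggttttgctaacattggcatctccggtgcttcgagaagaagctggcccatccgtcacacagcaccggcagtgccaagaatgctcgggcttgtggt
Near Rbfox3, chromosome 11: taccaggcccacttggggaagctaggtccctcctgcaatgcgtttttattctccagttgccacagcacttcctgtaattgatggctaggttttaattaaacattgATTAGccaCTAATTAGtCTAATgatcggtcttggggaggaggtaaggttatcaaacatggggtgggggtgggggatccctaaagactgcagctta
Strongest site in neither brain list, chromosome X: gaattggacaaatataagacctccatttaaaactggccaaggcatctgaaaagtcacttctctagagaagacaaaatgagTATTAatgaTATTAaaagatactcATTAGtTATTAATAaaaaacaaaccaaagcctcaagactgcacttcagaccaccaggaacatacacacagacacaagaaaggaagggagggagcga
Site shared with standard SATB1 and CTCF, chromosome 17: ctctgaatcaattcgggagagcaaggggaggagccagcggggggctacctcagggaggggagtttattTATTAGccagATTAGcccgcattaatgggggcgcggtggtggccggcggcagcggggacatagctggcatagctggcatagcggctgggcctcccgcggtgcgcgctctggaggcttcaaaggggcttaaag

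At the border of the BUR rule, 1 site and 1 excluded peak are shown. The closest site to a BUR, at chr6:143257232-143257431, stood 3 bp from it, and the BUR-overlapping peak with the least overlap, at chr14:107814402-107814601, shared 1 bp. Their fold enrichment in thymocyte replicates 2 and 1 was 4.68 and 4.83 for the first and 6.50 and 5.33 for the second. AT content over 200 bp was 62% and 70.5%, and ATTAG stood 3 times in the first and 0 times in the second. Both are printed with the same capitals.
3 bp outside a BUR, chromosome 6: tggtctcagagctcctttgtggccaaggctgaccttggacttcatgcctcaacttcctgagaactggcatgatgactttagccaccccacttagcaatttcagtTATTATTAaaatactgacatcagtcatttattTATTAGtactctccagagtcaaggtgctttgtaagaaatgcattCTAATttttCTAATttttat
1 bp inside a BUR, chromosome 14: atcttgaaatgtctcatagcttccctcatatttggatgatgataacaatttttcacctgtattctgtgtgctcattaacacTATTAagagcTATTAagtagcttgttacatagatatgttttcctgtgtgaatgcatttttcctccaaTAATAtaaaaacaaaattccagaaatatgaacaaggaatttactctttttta
Few sites sat at this border: 65 sites had a BUR within 100 bp, and 67 of the overlapping peaks shared at most 100 bp with BURs. A skin peak lay within 1 kb of 43 sites, or 0.819%, and within 100 bp of 1.

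Fold enrichment at the summit, the ratio of signal to local background that the peak caller gives, was moderate at these sites. In thymocyte replicate 2 it ran from 1.75 to 31.1 with a median of 6.62, and in replicate 1 from 2.02 to 29.0 with a median of 6.86. Peaks that met the same rule but overlapped a BUR, 17281 in number and here called the BUR-overlapping counterparts, had medians of 7.28 and 8.35. The 824 non-BUR sites that both skin lists shared had a median of 11.0 in replicate 2. The 2 thymocyte replicates ranked the 5248 sites similarly, with Pearson's r of 0.689 on the log2 scale and Spearman's rho of 0.619 across sites. These points share their libraries and are not independent replicates. In 8 of 10 sites the ratio of replicate 1 to replicate 2 lay between 0.766 and 1.41.

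Sites absent in 1 or both brain lists were weaker in thymocytes than sites present in both. The median in replicates 2 and 1 was 6.87 and 7.37 for sites in both brain lists, 6.24 and 6.35 for sites in 1, and 5.91 and 5.82 for sites in neither. Where a site was in both brain lists, its fold enrichment there was similar to that in thymocytes, with a median brain to thymocyte ratio of 1.04 over 3813 sites. Sites in 1 brain list had brain medians of 5.18 in replicate 1 and 5.31 in replicate 2, below their thymocyte medians. The mean brain value exceeded the mean thymocyte value at 54.9% of these sites and at 85.8% of the 16822 BUR-overlapping counterparts in both brain lists. Brain medians were 7.48 and 7.75 at the non-BUR sites and 13.0 and 12.7 at these counterparts. Across the 3813 sites, the mean thymocyte and mean brain fold enrichment gave r = 0.336 and rho = 0.293, lower than between the 2 thymocyte replicates.

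**Figure D1:**
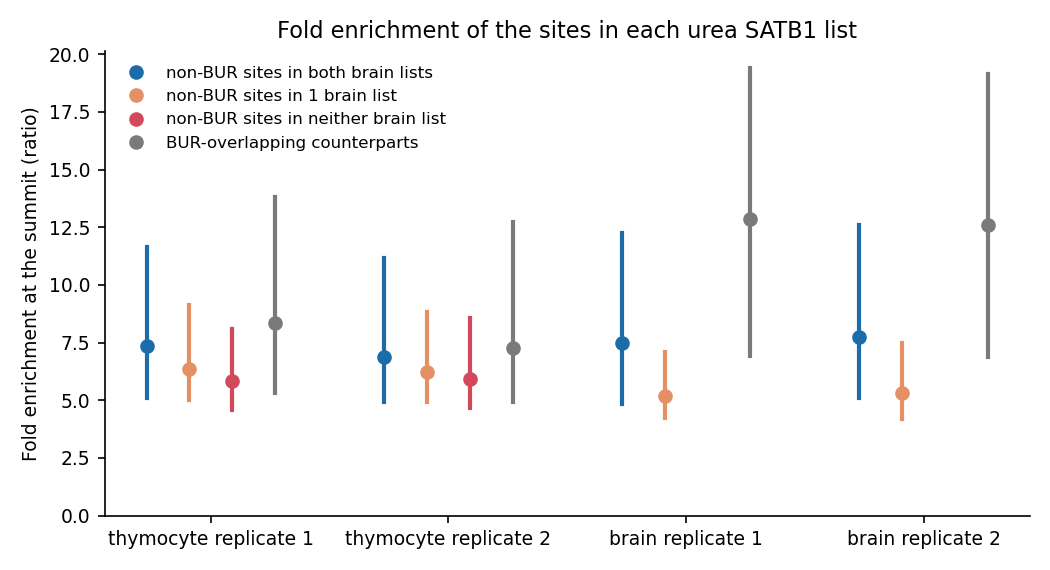
Fold enrichment (vertical axis, ratio to local background) of the non-BUR sites, divided by their brain calls, and of the BUR-overlapping counterparts in 2 thymocyte and 2 brain urea SATB1 lists. Points are medians over sites and bars run from the 10% to the 90% quantile; the counterparts rise to 12.9 and 12.6 in brain, while the non-BUR sites in both brain lists stay at 7.48 and 7.75.

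The strongest sites outside BURs that were called in both brain lists had the highest values in thymocytes. The chromosome 10 site had fold enrichments of 31.1 in thymocyte replicate 2, 29.0 in replicate 1, 27.7 in brain replicate 1 and 27.5 in brain replicate 2. It was high in all 4 libraries, its AT content was 46.7% over 300 bp, and it was also in standard replicate 2 and the thymocyte CTCF list. A site at chr10:18816292-18816791, 81.1 kb from a start site of Tnfaip3, a restraint on NF-kB signalling, had 21.8, 23.3, 15.9 and 15.6 in the same order. Near Dbx1, a homeobox gene of the developing nervous system, a site 6.18 kb from its start site had 18.0, 21.3, 17.2 and 14.7. Both were lower in brain than in thymocytes in every pair of libraries. These sites and those named at genes below were picked by thymocyte fold enrichment, so their comparison with brain is a description.

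Sites in neither brain list reached at most 15.0 in a thymocyte list. The strongest, near Xiap, an inhibitor of cell death proteases, had 13.7 in replicate 2 and 15.0 in replicate 1. An intron of Fam129a, at chr1:153442182-153442631, held a site with 13.7 and 12.5. In an intron of Hsf3, a heat shock factor gene on X, a site had 12.5 and 11.7. Near Cylc1, a gene of the sperm head, the 2 replicates were far apart at 8.06 and 14.5. Of the 5 strongest sites in neither brain list, 3 lay on X.

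Calls in brain covered a smaller share of these sites than of their BUR-overlapping counterparts. Brain replicate 1 held 82.0% of the 5248 sites and replicate 2 held 81.5%, beside 92.3% and 90.5% of all 38765 thymocyte peaks and 98.7% and 98.1% of the counterparts. Both lists together held 72.7% of the sites, beside 87.7% of all peaks and 97.3% of the counterparts. The non-BUR sites shared with both skin lists were near the sites, with 83.3% in brain replicate 1, 80.8% in replicate 2 and 75.1% in both. With thymocyte replicate 1 as the base list, the shares in both brain lists were 72.7% and 97.3%. The gap between sites and counterparts was larger than the difference between the 2 brain lists. Since brain calls divide the sites by the rule, this is a description.

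The share of these sites with a brain call rose with thymocyte strength. Among sites with a fold enrichment under 5, brain replicate 1 held 72.8% and replicate 2 held 73.9%. At 10 to 15 the shares were 94.0% and 92.5%, and at 15 or more, over 75 sites, they were 98.7% and 97.3%. Non-BUR sites shared with both skin lists, with a median fold enrichment of 11.0, had lower shares of 83.3% and 80.8%. The counterparts stayed between 97.2% and 99.9% in every class of fold enrichment and both lists. Among sites under 7-fold, those with an AT content under 55% were in both brain lists in 39.7% of 156 cases, and those with 65% to 70% in 74.5% of 911. At 7-fold or more the same AT classes gave 63.9% of 166 and 83.1% of 617.

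Absence in skin followed the same measure. Of the 6617 non-BUR peaks in both thymocyte lists, 91.4% were absent from skin at a fold enrichment under 5, 81.4% at 7 to 10, 58.1% at 10 to 15 and 22.3% at 15 or more. BUR-overlapping peaks ran from 96.0% to 12.7% over the same classes. The skin lists were the shortest, with 10982 and 10611 peaks, and the brain lists the longest of the ChIP lists, with 117870 and 109063. Whether a site without a skin call was unbound or below the reach of the skin lists cannot be told apart from the lists alone. By either skin list on its own, 94.5% and 93.6% of the weakest non-BUR peaks were absent.

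On the X chromosome the share of sites with a brain call stood below that on the autosomes, a comparison chosen after the values were seen and given with no test. Of the 277 sites on X, brain replicate 1 held 69.7%, replicate 2 held 62.1% and both held 54.5%. Of the 4971 autosomal sites, these shares were 82.7%, 82.6% and 73.7%, and on single autosomes the share in both lists ran from 68.6% on chromosome 5 to 80.3% on chromosome 7. X lay below all 19 autosomes in this share. It held 63 of the 482 sites in neither brain list, or 22.7% of its own sites against 8.43% of the autosomal ones. All thymocyte peaks differed in the same direction, with 10.6% on X and 4.54% on the autosomes in neither list. In both lists these shares of all peaks were 78.7% and 88.2%. Thymocyte fold enrichment of the sites was close, with medians of 6.76 on X and 6.62 on the autosomes, and their median AT content was 66% and 62.7%. The counterparts showed a smaller gap in the same direction, with 91.7% on X and 97.7% on the autosomes in both brain lists. X took 5.54% and 5.37% of the thymocyte peaks and 4.60% and 4.43% of the brain peaks, and the sex of the mice is not given in the labels used here. The part of sex or mapping in the gap was not tested.

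**Figure D2:**
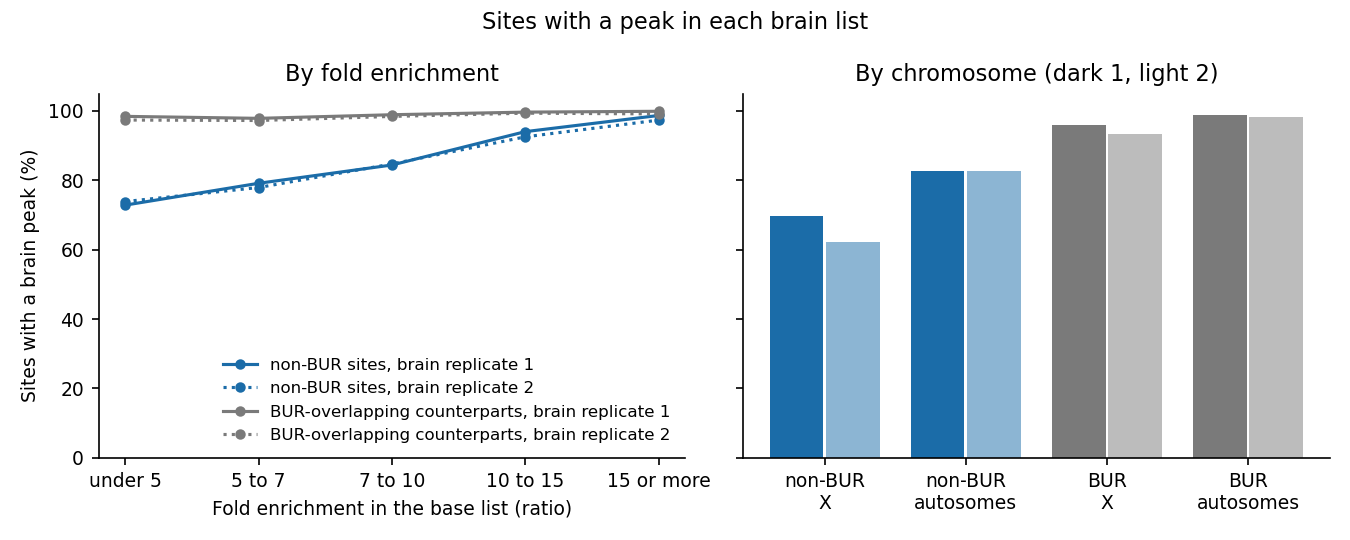
Percentage of sites with a peak in each brain list (vertical axes), by class of fold enrichment in thymocyte replicate 2 (left) and for X and the autosomes (right; dark bars brain replicate 1, light bars replicate 2). The non-BUR sites climb from 72.8% to 98.7% in replicate 1 while the counterparts stay near the top, and X falls below the autosomes in both lists.

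AT content over 300 bp around the summit had a median of 63% with either thymocyte list as the base (SD 0 over n = 2 base lists, which share their sites by the rule). From the 10% to the 90% quantile it ran from 56.3% to 68.3%. The BUR-overlapping counterparts had a median of 70.7% (sites minus counterparts -7.67 percentage points with either base list), and 255555 windows placed every 10 kb along the genome had 58.3%. Sites not in both brain lists had 61.7% and those in both had 63.3%, a difference of -1.67 points with either base list. The longest stretch without C or without G had a median of 29 bp at the sites, 35 bp at the counterparts and 27 bp in the genome windows. The study describes BURs as at least 65% AT, with runs lacking C or G. The division by BUR overlap therefore bears on the differences from the counterparts in AT content and longest stretch, which are descriptions. CpG dinucleotides numbered 1.93 ± 0.0119 per site (mean ± SD, n = 2 base lists) and 1.02 ± 0.00118 per counterpart.

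AT content was not level across the window. In the central 20 bp it was 70.7% ± 0.426 (SD, n = 2 base lists), and in the outer 30 bp on each side 58.7% ± 0.0533, close to the genome windows. The rise from edge to centre was 12.0 ± 0.373 points at the sites and 8.94 ± 0.131 points at the counterparts. The 2 base lists hold the same sites by the rule, so their SD reflects the placing of summits and is no spread between animals. Non-BUR sites shared with both skin lists rose by 15.3 ± 0.501 points. The rise of a non-BUR site is seen as a narrow peak in the plot of AT content by distance.

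At the summits, short words containing TAAT or its reverse complement ATTA were concentrated. All 512 words of 5 bases, read on both strands together, were ranked by their frequency within 40 bp of the summit over that beyond 110 bp, on the 2537 sites of odd-numbered chromosomes. TAATA led with a ratio of 8.94, followed by ATTAG with 8.19 and ATTAA with 7.41. On the 2711 sites of the even-numbered chromosomes and X, which were not used for the ranking, the same 3 words came first in the same order, with 7.97, 7.62 and 6.71. At the counterparts these ratios were 3.61, 3.22 and 3.38. The words were chosen from these sites, so the counts that follow are descriptions without a test.

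Within 40 bp of the summit, ATTAG stood in 79.4% of the sites, beside 67.6% of all thymocyte peaks, 66.8% of the counterparts and 13.3% of the genome windows. TAATA stood in 85.9% of the sites, 88.1% of all peaks, 89.7% of the counterparts and 18% of the windows. ATTAG was thus more frequent at the sites than at the counterparts although these were richer in A and T. Where AT content was held to between 60% and 66%, ATTAG was near the summit in 79.8% of 2506 sites, 68.1% of 2531 counterparts and 16.6% of 72224 genome windows. AATATAT, a word of the kind found in easily unwound DNA, had the opposite order, with 4.80% at the sites and 10.1% at the counterparts.

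The word gathered more tightly at the summit of non-BUR sites, whether or not shared with skin, than of the counterparts. In the central 40 bp, copies of ATTAG were 9.88 ± 0.0204 times as dense as in the outer 40 bp on each side (SD, n = 2 base lists), against 3.95 ± 0.00928 times at the counterparts and 11.5 ± 0.424 times at the non-BUR sites shared with both skin lists. For sites not in both brain lists the ratio was 15.1 ± 0.409 and for sites in both 8.74 ± 0.0534. The central density was similar, at 21.7 and 21.3 copies per 100 sites in 10 bp, while the outer density was 1.46 and 2.42. Near and far from BURs the word was frequent, being near the summit in 79.5% of the 1246 sites with no BUR within 10 kb and in 75.4% of the 65 sites with a BUR within 100 bp. Median AT content of these groups was 60.7% and 64.3%.

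**Figure D3:**
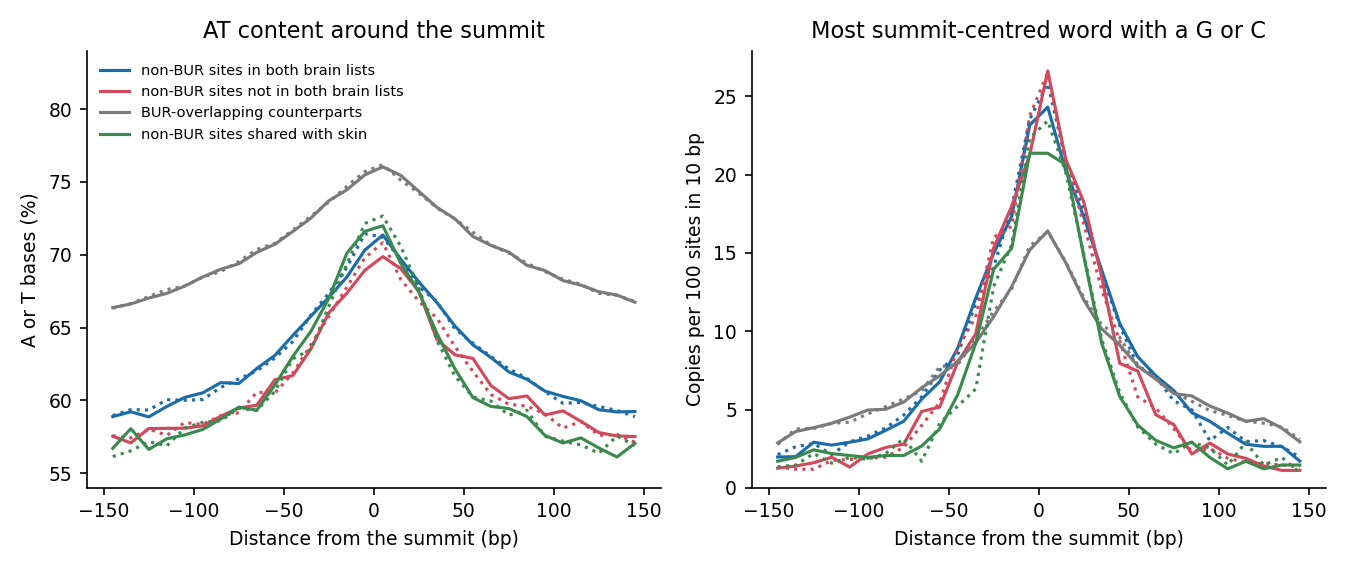
AT content (left, percent of bases in 10 bp steps) and copies of the word ATTAG on either strand (right, per 100 sites in 10 bp) against distance from the peak summit. Solid lines have thymocyte replicate 2 and dotted lines replicate 1 as base list; the non-BUR sites form a narrow peak over a base near 58.7% AT, and the counterparts a broader one over 66.9%.

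Stronger sites held more copies, and so did stronger BUR-overlapping counterparts, all of them absent in skin. The share with 3 or more copies of ATTAG in 300 bp was 38.3% at a fold enrichment under 5, 44.9% at 7 to 10, 52.1% at 10 to 15 and 68% at 15 or more. The share with a copy near the summit ran from 70.5% to 90.7% over the same classes, while median AT content went down from 63.7% to 60.7%. Sites not in both brain lists held fewer copies, with 37.2% having 3 or more against 45.1% of sites in both. At the counterparts the share with 3 or more rose from 32.8% under 5-fold to 49.9% at 15 or more, and was 21.4% for those not in both brain lists and 37.8% for those in both. Genome windows reached 2.10%. Of the 5248 sites, 6.76% had no copy in 300 bp, among them the strongest site on chromosome 10. Non-BUR sites shared with both skin lists had a higher median fold enrichment, 11.0, but fewer copies. Of these, 27.4% had 3 or more and 17.5% had none.

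Over all sites, pairs of ATTAG copies on the same strand rose and fell in number with the distance between them. In the central 120 bp, 56.8% of the sites held at least 2 copies on either strand, beside 38.5% of the counterparts and 2.13% of the genome windows. Pairs on the same strand, counted from start to start, came to 2.70 per 100 sites at each distance from 7 to 12 bp, 1.46 at 13 to 16 bp, 1.64 at 17 to 22 bp, 0.991 at 23 to 26 bp and 1.20 at 27 to 32 bp. The classes of 7 to 12, 17 to 22 and 27 to 32 bp were thus each higher than the class between them. With replicate 1 as the base list the values were 2.72, 1.53, 1.62, 0.972 and 1.18. Copies facing each other, with ATTAG first and its reverse complement second, followed the same course with 0.975, 0.648, 0.962, 0.495 and 0.715.

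The same series was counted in parts of the data. On odd-numbered chromosomes the same-strand series was 2.66, 1.63, 1.72, 0.877 and 1.32, and on the others 2.74, 1.30, 1.56, 1.10 and 1.08, where the last high did not stand out. Sites in both brain lists gave 2.67, 1.31, 1.67, 0.990 and 1.23, and sites not in both gave 2.79, 1.85, 1.56, 0.993 and 1.11, where 17 to 22 bp did not exceed 13 to 16 bp. The counterparts had a shallower series of 1.01, 0.703, 0.761, 0.606 and 0.615. A same-strand pair at 7 to 12 bp was present in 14.4% of the sites, 5.62% of the counterparts, 12.0% of the non-BUR sites shared with skin and 0.168% of the genome windows. The Rbfox3 site printed above holds such a pair in its centre. Spacings and classes of distance were set after the counts were seen, and no test was made.

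**Figure D4:**
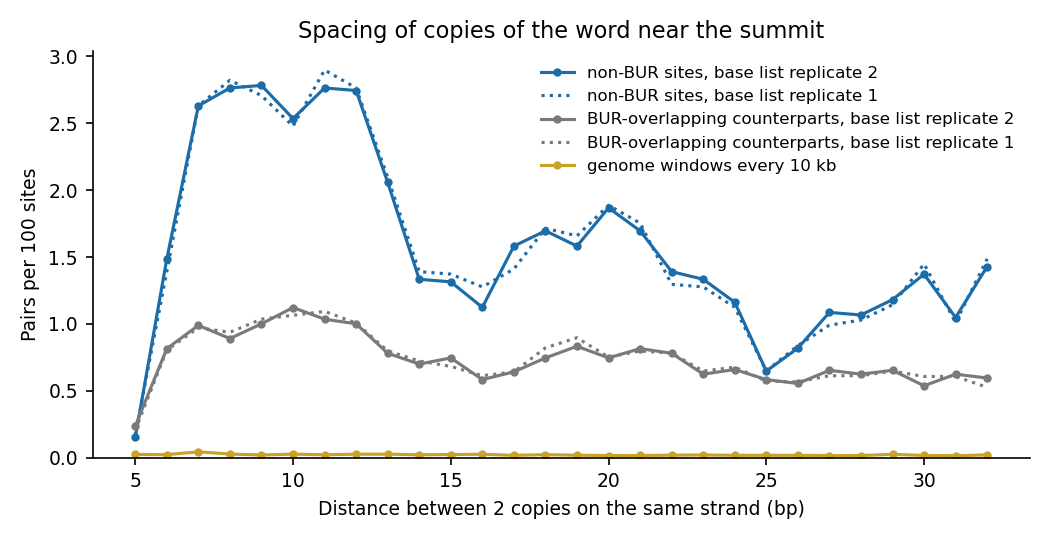
Pairs of ATTAG copies on the same strand within 60 bp of the summit (vertical axis, pairs per 100 sites) against the distance between their starts in bp, for the non-BUR sites, the BUR-overlapping counterparts and genome windows every 10 kb. Solid and dotted lines have thymocyte replicate 2 and 1 as base list; the sites stand at 2.70 over 7 to 12 bp, dip to 1.46 and rise again to 1.64 near 20 bp.

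BURs lay somewhat nearer to these sites than to genome windows. The median distance to the nearest BUR was 3454 ± 11.0 bp (SD, n = 2 base lists), and genome windows, some of which lie inside BURs, had 4096 bp. A BUR lay within 200 bp of 3.56% of the sites, within 1 kb of 20.4% (20.1% of the windows) and within 10 kb of 76.3%. None lay within 50 kb of 71 sites, or 1.35%. Of all thymocyte peaks, most of which overlap a BUR, 94.8% had a BUR within 10 kb and 0.261% had none within 50 kb. At 1 kb from the summit, 5.31% of positions were inside a BUR for sites in both brain lists and 5.47% for sites not in both, and 4.12% of the window centres were inside one, whereas at 500 bp, where the exclusion of BURs by the rule still weighs, the shares were 3.75% and 2.61%. The number of BURs within 50 kb had a median of 8 at the sites, 15 at the counterparts and 7 in genome windows.

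Standard SATB1 and CTCF peaks were rare at the sites. Standard replicate 1 overlapped 44 of the 5248 sites, or 0.838%, beside 0.895% of all thymocyte urea peaks, and standard replicate 2 overlapped 21, or 0.400%, beside 0.694%. CTCF peaks of thymocytes overlapped 26 sites, 0.495% beside 0.586%, and CTCF peaks of skin 43, 0.819% beside 0.867%. With replicate 1 as the base list, standard replicate 1 overlapped 0.839% of the sites and 0.759% of all peaks, and thymocyte CTCF 0.534% and 0.523%, so the order against all peaks depended on the base list for these 2 lists. The 482 sites in neither brain list had 1.45% and 0.415% for the standard lists. The mean over the 2 standard lists was 0.619% ± 0.310 and over the 2 CTCF lists 0.657% ± 0.229. The standard lists differ in antibody and the CTCF lists in tissue, and an exact two-sided permutation test of 2 lists against 2 cannot go below 0.333 (here p = 1), so the test could not have shown a difference.

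Counterparts had 0.272% ± 0.00818 for standard SATB1 and 0.301% ± 0.164 for CTCF (SD, n = 2 lists each). Non-BUR sites shared with both skin lists had 4.55% ± 1.12 and 5.52% ± 0.601. Within 3 kb, standard replicate 1 had a peak near 9.26% of the sites and replicate 2 near 5.96%, beside 6.72% and 4.24% of all peaks. Of the 5248 sites, 5160 were in none of the 4 lists, and 1.68% were in at least 1, beside 1.53% of all peaks. Both standard lists held 14 sites, 0.267% beside 0.495% of all peaks. Both standard lists and at least 1 CTCF list were present at 6 sites, 0.114% beside 0.359%. All 4 lists held 4 of these 6, a count for which the share of all peaks was not computed.

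The strongest of these 6 was the chromosome 17 site printed above. Its fold enrichment was 10.7 and 10.1 in thymocyte replicates 2 and 1 and 4.41 and 6.19 in brain replicates 1 and 2, and its AT content of 34.7% over 300 bp was below the 10% quantile of the sites. It held 2 copies of ATTAG. Another lay 13.3 kb from a start site of Nfkbia, an inhibitor of NF-kB, with 9.10 and 7.88 in thymocytes. A site 0.81 kb from the start of the histone gene Hist1h4c had 6.24 and 9.65 and was in brain replicate 1 alone, at 7.29.

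**Figure D5:**
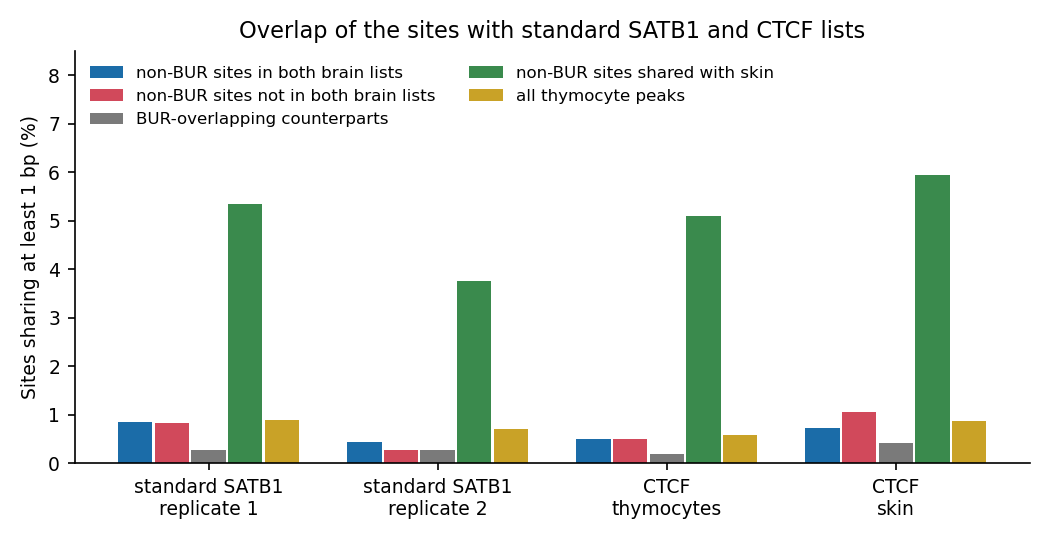
Percentage of sites (vertical axis) that share at least 1 bp with each standard SATB1 and CTCF list, for the non-BUR sites divided by brain calls, their counterparts, the non-BUR sites shared with skin and all thymocyte urea peaks. The non-BUR sites absent in skin lie between 0.279% and 1.05%, near all peaks, and those shared with skin between 3.76% and 5.95%.

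By gene annotation, 1.33% of the summits fell in an exon of a protein-coding gene, 38.7% in an intron and 60.0% outside genes. In all, 40.0% lay in a gene, beside 34.9% of all thymocyte peaks, 32.4% of the counterparts and 38.8% of genome windows. A transcript start was within 5 kb of 10.8% of the sites, 7.36% of the counterparts and 12.3% of the windows. The median distance to a start was 59.2 kb, against 126 kb at the counterparts. Sites in both brain lists and not in both differed little, with 40.2% and 39.4% in genes. The sites were spread along the chromosomes, from 1.66 per Mb on X to 2.36 per Mb on chromosome 16, with a median gap of 318 kb between neighbours.

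Of 22350 protein-coding genes, 21.6% had a site in the gene or within 50 kb, and 7.28% in the gene body. T-cell genes were near this background, with 14 of 59 matched genes, or 23.7%. Without thymocyte replicate 2, which leaves more sites, the count was 22. In that setting the genes with a site also rose, from 4829 to 7232 of all 22350. Cxcr4, the receptor that guides thymocyte precursors, had a site 37.2 kb from its start with 11.3 and 10.3 in thymocytes and 16.4 and 13.3 in brain. At Arpp21 the strongest site had 11.1 and 9.15 in thymocytes and 6.25 and 9.69 in brain. Both sites were called in both brain lists, and the Cxcr4 site was higher in each of them than in either thymocyte list. Tcf12, an E-protein gene, had 3 sites, all in both brain lists.

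Epidermal genes had a site in 14 of 60 cases, or 23.3%, also near the background. Without thymocyte replicate 2 the count was 22, where 7232 of all 22350 genes had a site. In the epidermal differentiation complex, a site within 50 kb of the loricrin gene Lor had 11.3 and 11.8 in thymocytes and 4.22 in brain replicate 1, with no call in replicate 2. Within 50 kb of Lce1c, another cornified envelope gene, a site had 11.2 and 10.8 in thymocytes and 14.4 and 13.5 in brain. Sites not in both brain lists were near 9 of the 60 genes, 15% beside 7.24% of all genes, and sites in both near 7, 11.7% beside 16%. These counts are small, and no test was made.

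Neuronal genes had a site in 44 of 59 cases, or 74.6%, and in the gene body in 36. Counterparts lay within 50 kb of 50 of these genes, or 84.7%, beside 33.1% of all genes. The list held very long genes, with a median length of 444 kb against 15.4 kb for all genes. Of all 528 protein-coding genes of at least 300 kb, 76.3% had a site within 50 kb, and of the 37 neuronal genes in this class 32, or 86.5%, had one. From 100 to 300 kb, 7 of 9 neuronal genes had a site, beside 40.5% of all genes of that length, and from 30 to 100 kb 4 of 11, beside 24.7%. The classes hold few neuronal genes, length was not matched within the wide class of 300 kb or more, and no test was made. The Rbfox3 site printed above had 15.6 in each thymocyte list and 7.09 and 6.41 in brain. In an intron of Negr1, a neuronal adhesion gene, a site had 14.3 and 14.7 in thymocytes and 9.24 and 11.3 in brain. In Ctnna2, a catenin of synapses, the site had 15.3 and 9.51 in thymocytes and 13.8 and 15.8 in brain, so the 2 tissues overlapped.

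The genes with most sites in their bodies were long in the annotation used. Pcdh9, a protocadherin gene of 873 kb at chr14:93414731-94287951, held 8 sites, 7 of them in both brain lists, and 19 counterparts. Dlg2, a synaptic scaffold gene of 1945 kb, held 7 sites, all in both brain lists. Pcdh15 held 7, all in both, and Nrxn3 held 7, of which 4 were in both. Cntnap2, Csmd1, Fgfr2, Kcnip4 and Rbms3 held 6 each, counted over the annotated spans, which for Fgfr2 is 3009 kb. Cntnap2, of 2241 kb, also held 34 counterparts. The strongest Pcdh9 site, picked by its thymocyte values, had 12.4 and 13.5 in thymocytes and 7.39 and 8.73 in brain. Per Mb of gene, Pcdh9 held 9.16 sites, Cntnap2 2.68 and Fgfr2 1.99, beside 1.66 to 2.36 per Mb of whole chromosomes. These genes were picked for their number of sites, so the densities are descriptions.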

How the data were processed

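Peak lists of 11 samples were analysed, 1 per sample. The authors mapped reads with bowtie2 2.3.1 to NCBI37/mm9, allowing 3 mismatches in the seed and unique matches only, and used MACS2 2.2.7 (q-value limit 0.01) to call peaks, 1 sample at a time. The deposited columns are a display score of the peak caller, which was not used, the fold enrichment, which the authors' caller gives as a ratio of summit signal to local background within a sample, and the −log10 p-value and −log10 q-value that the authors' caller computed per peak. The control given to the caller is not given in the sources used here. No counts are in the lists, so depth could not be computed and intervals are left out. The study's text calls the aligned read totals of its urea libraries similar.

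Overlaps, distances and sequence measures were computed with Python 3.11.15, numpy, scipy, pandas and pysam, and were tested on simulated data. The replicate numbers are those of the labels. Lists overlapped when they shared at least 1 bp. Peak ends were compared with NCBIM37 chromosome lengths: no thymocyte urea peak passed an end, and peaks of other lists passed by at most 209 bp. Genes came from GENCODE vM1, and 1 symbol each of the T-cell and neuronal lists of 60 was not matched. Sequence measures used 300 bp around the summit, and the rule was repeated with thymocyte replicate 1 as base list, which gave the SD over 2 base lists. Sites were named as the 5 strongest by mean fold in both and in neither brain list, the 3 strongest at each gene list (1 of these is not reported here), those nearest the BUR border, up to 5 with standard and CTCF peaks, and the genes with most sites. The alternatives tried were peaks with −log10 q of 5 or more, other overlaps, windows and gene limits, and each replicate left out. The sites, lists and words were chosen with earlier results of these data known. Inputs, knockout, Hi-C and 4C samples were not used here.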

Additional observations from a re-analysis of the deposited data

How the results depend on the processing

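No paired analysis was possible because the lists hold peaks without counts and the replicate numbers do not tie samples of different groups together. Of the alternative values for the main results, 104 stayed within set limits, 22 passed them and 0 reversed. Leaving out a brain list cannot change which sites qualify. Its values outside the brain split were therefore fixed in advance, and they count among the 104 without being evidence of stability. The limits were 1.5 times for counts, 95% binomial intervals for most shares, and the larger of the SD over base lists and 1 step of the scale for medians. The distance to the nearest BUR was 3498 bp with −log10 q of at least 5, 3297.5 bp by summit, 3309 bp with 50% overlap and 3446 bp from replicate 1 as base list, and ran from 3334 to 3534 bp when a replicate was left out. The standard SATB1 share was 0.204% by summit and 0.214% with 50% overlap, and the thymocyte CTCF share 0.297% by summit, since these settings accept fewer overlaps. Leaving out a replicate gave 5248 to 9398 sites, the most without thymocyte replicate 2, and 63.7% to 82.0% of sites in both brain lists, since fewer lists had to agree on a call. In 100 bp, AT content was 68%, the longest stretch 24 bp and the brain difference in AT content -1 points. Without a BUR within 1 kb, AT content was 62.3% and 41.5% of sites lay in genes, and the cause was not tested. By gene body alone, 1628 genes held a site. Peak lists without depth cannot tell an absent site from one below the calling limit.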
